A study of Gallus gallus with 24 samples.

Results

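Abdominal fat of 11-wk-old cockerels from a high-growth (HG) chicken line was compared with that of low-growth (LG) cockerels of the same age on 4 arrays, the 4 of 24 in the series that were labelled with this age. Both lines came from a meat-type population bred apart for body weight, and the other 20 arrays compared the same lines at 1, 3, 5, 7 and 9 wk. Each array held the RNA of 1 HG and 1 LG bird, so 4 HG and 4 LG birds were measured, with no bird on 2 arrays. Both lines were fed and had been vaccinated against Marek's disease as hatchlings, and the study's methods state that they were housed apart for the first weeks, when LG chicks received crushed pellets. Each growth type is represented by 1 line, so selection for growth cannot be told apart from anything else in which the lines differ.

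Abdominal fat of birds is a storage tissue. Chickens make most of their fatty acids in the liver and carry them to fat cells in lipoproteins, but fat cells also keep the enzymes that make, desaturate and esterify fatty acids. Fat cells are supported by an extracellular matrix that is laid down, cross-linked and cut as the depot grows.

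Each value is a log2 ratio of the HG over the LG bird on a spotted cDNA array, centred on the median spot of its array. Values above 0 stand for more RNA in the HG bird, and a value of 1 for a doubling relative to that median. This direction is likely but not settled. It was read from the dyes in the labels and the usual red over green ratio of the scanner software, and if it were the other way round every "higher" would read "lower". The red dye marked LG on replicates 1 and 3 and HG on replicates 2 and 4. At 11 wk an array gave 18179 to 18374 measured spots of 19200, and the other arrays gave 17380 to 18529. The test covered 6183 named genes and 16895 probes. A fixed preference of spots for 1 dye was large here: the median size of the fitted dye term was 0.16 and that of the 11 wk ratio was 0.11. Before that term was removed, arrays of opposite dye orientation correlated across genes at r of -0.253 to -0.17 and arrays of the same orientation at 0.255 and 0.3. After its removal, pairs of opposite orientation lay between -0.063 and 0.012. Those of the same orientation lay at 0.091 and 0.103, so they were still the higher. Genes are not independent replicates, and these correlations carry no test.

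At 11 wk, TIMP4, TGM2, BEND7 and MED27 were lower in HG fat. No gene was called higher. These 4 of 6183 genes (0.0647%) passed limma's test at an adjusted p of 0.05. An unadjusted p under 0.05 was reached by 383 genes (6.19%), 189 higher and 194 lower in HG, where 309 would be expected if no gene differed. The same sign on every measured array was found for 634 genes (10.3%). In bulk fat, fewer cells of a type and less RNA per cell cannot be told apart.

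TIMP4 encodes an inhibitor of matrix metalloproteinases. Its log2 ratio was -1.35, -3.34, -1.33 and -2.39 on replicates 1 to 4. HG was lower on every array, and the 2 arrays with HG in red gave the larger differences. The fitted value was -2.10 ± 0.32 (SE, n = 4 arrays; limma, adjusted p = 0.013), which is 4.29-fold lower in HG.

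TGM2, transglutaminase 2, cross-links proteins of the matrix. Its log2 ratio was -1.33, -1.52, -0.97 and -0.93, the narrowest spread of the 4 called genes (SD 0.283), and it fell by 1.19 ± 0.19 (adjusted p = 0.013), which is 2.27-fold. TGM2 lay on 2 probes, with fitted log2 ratios of -1.17 and -1.20 (limma over probes, adjusted p of 0.010 and 0.075). TIMP4, BEND7 and MED27 lay on 1 probe each.

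BEND7, a gene with a BEN domain, had log2 ratios of -1.26, -1.87, -0.63 and -1.24 and a fitted value of -1.25 ± 0.20 (adjusted p = 0.013). MED27 encodes a subunit of Mediator, the complex that links transcription factors to RNA polymerase II. Its log2 ratios of -3.64, -1.70, -2.75 and -2.66 gave -2.69 ± 0.50, or 6.45-fold lower in HG, but with the widest error of the 4 called genes (adjusted p = 0.047).

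The calls rested on few arrays. With replicate 1, 2, 3 or 4 left out, limma called 6, 1, 2 and 1 genes, of which 1, 0, 2 and 1 were among the 4. TIMP4 lost its call without replicate 2 or 4, TGM2 without replicate 1, 2 or 3, BEND7 without replicate 1, 2 or 4, and MED27 without any of the 4. All 4 calls were lost, with 0 genes called, when the 11 wk arrays were fitted alone or when the arrays of 1 and 3 wk were left out, and array weights lost TGM2 and MED27. The direction of the 4 held under every alternative run.

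**Figure D1:**
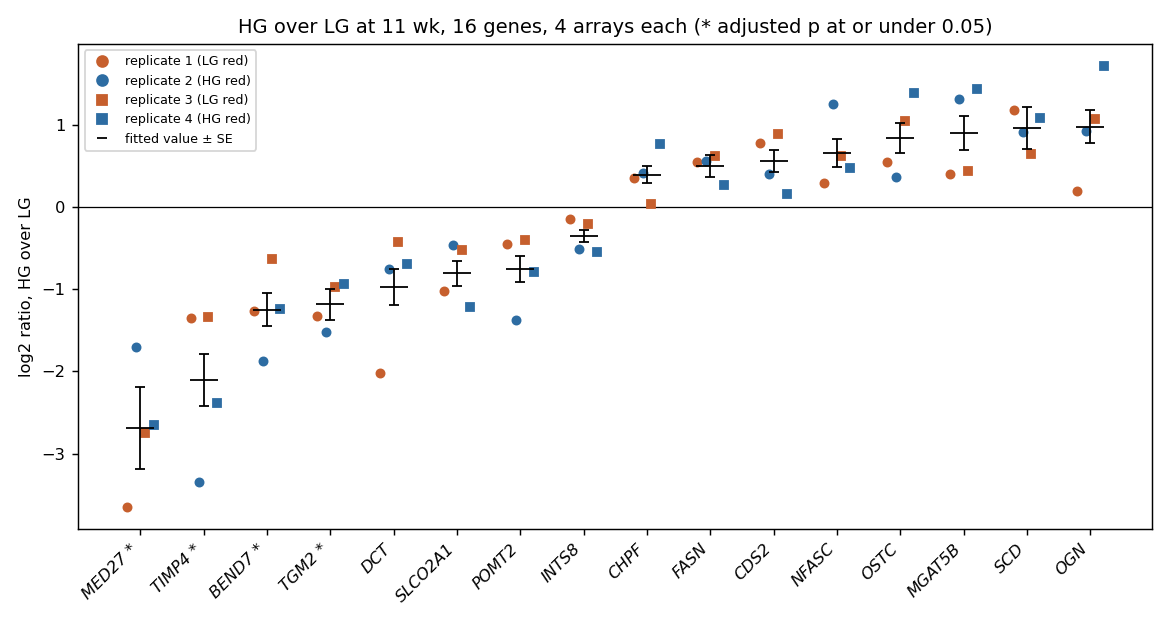
Log2 ratios of HG over LG at 11 wk (y axis) for 16 genes (x axis, in order of the fitted value), with 1 point per array and the fitted value ± SE in black. Asterisks mark the 4 called genes, all below 0 on each of their 4 arrays, and the other 12 did not pass the test.

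Beside the called genes, the next 4 lower in HG on every array were SLCO2A1, POMT2, INTS8 and DCT, none past the threshold. SLCO2A1, a transporter that takes up prostaglandins, had log2 ratios of -1.02, -0.47, -0.52 and -1.21 and a fitted value of -0.81 ± 0.15 (adjusted p = 0.061). It passed without replicate 2 (adjusted p = 0.020), with each printing block of the array centred (0.043) and with only probes measured on all 24 arrays (0.047), against 0.020 to 0.999 over its 16 alternatives. POMT2, an O-mannosyltransferase, stood at -0.76 ± 0.15 (adjusted p = 0.094), INTS8, a subunit of Integrator, at -0.35 ± 0.08 (0.13), and DCT, an enzyme of melanin synthesis, at -0.98 ± 0.22 (0.15).

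The 8 genes with the firmest positive ratios were OGN, OSTC, MGAT5B, CDS2, NFASC, SCD, CHPF and FASN, none past the threshold. OGN, a small leucine-rich proteoglycan of the matrix, had log2 ratios of 0.19, 0.92, 1.08 and 1.72 and a fitted value of 0.98 ± 0.20 (adjusted p = 0.094). Replicate 1 was the lowest of its arrays, and without it OGN passed (1.27, adjusted p = 0.024, against 0.024 to 0.736 over its 16 alternatives). OSTC, a subunit of the oligosaccharyltransferase, averaged 0.84 ± 0.18 over 2 probes that disagreed, at 1.74 and -0.07, and passed without replicate 1 (1.06, adjusted p = 0.048, against 0.048 to 1.00 over its alternatives). The glycosyltransferase MGAT5B stood at 0.90 ± 0.20 (adjusted p = 0.15), but its value rested on 1 of 2 probes, at 2.08 on 3 arrays, while the other stood at 0.0073. It passed with each printing block centred (0.92, adjusted p = 0.043, against 0.043 to 1.00 over its alternatives). The chondroitin synthesis gene CHPF, at 0.39 ± 0.10 (adjusted p = 0.33), likewise had 1 probe at 1.72 on 3 arrays and 3 others at 0.03, 0.16 and 0.09. The cell adhesion gene NFASC stood at 0.66 ± 0.17, with its 3 probes at 0.34, 0.49 and 1.15.

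Genes of fat synthesis were divided. SCD, stearoyl-CoA desaturase, which turns saturated into monounsaturated fatty acids, had log2 ratios of 1.18, 0.92, 0.65 and 1.09, all above 0 and close together (SD 0.234). Its fitted value of 0.96 ± 0.25 was 1.94-fold, with an adjusted p of 0.33 (0.12 to 0.67 over 16 alternatives). It passed once the 3 wk array with most missing spots was left out (adjusted p = 0.013), an alternative chosen after seeing the data. FASN, fatty acid synthase, had 0.55, 0.56, 0.62 and 0.27 and a fitted value of 0.50 ± 0.13 (adjusted p = 0.33), but its 2 probes differed, at 0.98 and 0.02. CDS2, which makes CDP-diacylglycerol for phospholipids, had 0.78, 0.40, 0.89 and 0.16 (0.56 ± 0.13, adjusted p = 0.19). FADS2, the delta-6 desaturase, averaged 0.25 ± 0.17 over 5 probes, 1 of them of opposite sign. DGAT2, which adds the last fatty acid to triglyceride, averaged 0.21 ± 0.13. Both were above 0 on 4 of 4 arrays, with adjusted p of 0.92 or more. FADS1, another fatty acid desaturase, was below 0 on every array (-0.35 ± 0.17, adjusted p = 0.81), with its 3 probes of 1 sign.

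Over the whole list of fatty acid synthesis and desaturation, 11 of 23 measured genes lay above 0, where 53.5% of all genes did, and 2 had an unadjusted p under 0.05 (SCD and FASN, both higher), where 3.06% of all genes did on the higher side. Like the other lists, it was chosen with earlier results of these data known, so these shares are no separate evidence. The list's median log2 ratio was -0.03 at 11 wk and 0.21 at 9 wk, beside 0.01 for all genes at 11 wk. Its lowest member was ELOVL2, a fatty acid elongase (-0.80 ± 0.63). Triglyceride and glycerolipid assembly had 7 of 18 above 0 (median -0.09 at 11 wk, 0.15 at 9 wk), from CDS2 down to GPAT3, a glycerol-3-phosphate acyltransferase (-0.80 ± 0.32, adjusted p = 0.67). Lipolysis and lipid droplet had 7 of 15 above 0 (median -0.01). Its highest member was ABHD3, a phospholipase, at 0.89 ± 0.26, from 2 probes at 1.70 and 0.07. Its lowest was PNPLA2, adipose triglyceride lipase, at -0.25 ± 0.27. No gene of these lists was called, where 0.0647% of all genes were.

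PPARG and CEBPA, transcription factors of fat cell differentiation, lay near 0. PPARG, the nuclear receptor that drives it, had log2 ratios of 0.41, 0.002, -0.33 and -0.30 (-0.05 ± 0.20), and CEBPA had 0.23, -0.002, 0.34 and -0.38 (0.05 ± 0.14). Both took either sign across the arrays. Other transcription factors of the list lay further from 0, such as CEBPG (0.52 ± 0.25), RXRA (0.49 ± 0.64) and NR1H3 (-0.23 ± 0.17), none called. Adipocyte differentiation and fatty acid uptake had 9 of 24 genes above 0 (median -0.06). The list ran from SLC27A2, a fatty acid transporter whose value rested on replicate 1 (3.16, -0.46, 0.61 and -0.31), to VLDLR, a lipoprotein receptor (-0.58 ± 0.22, adjusted p = 0.65). Among the adipocyte markers, 9 of 15 measured stood above 0 (median 0.05), from SCD to FABP4, the fatty acid binding protein of fat cells (-0.26 ± 0.27). Ratios carry no level, so how strongly the tissue expressed these markers was not measured.

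The extracellular matrix list held 2 called genes among 55 measured, TIMP4 and TGM2, where 0.0647% of all genes were called. The list was chosen with earlier results of these data known, so these 2 calls are no separate evidence about it. Above 0 lay 38 of the 55 (median 0.03), where 53.5% of all genes did. 11 of them were above 0 on every array, where 5.08% of all genes were. THBS2, a matricellular thrombospondin, had 1.27, 1.48, 0.01 and 1.16 (0.98 ± 0.43, adjusted p = 0.73), and COL1A2, a chain of type I collagen, had 0.81, 1.57, 0.26 and 0.93 (0.90 ± 0.42, 0.78). Replicate 3 was the lowest array of both. COL1A1, also a chain of type I collagen, stood near 0 (0.06 ± 0.07), and COL6A1 stood at 0.34 ± 0.14. IGFBP2, an insulin-like growth factor binding protein, stood at 0.29 ± 0.10 (adjusted p = 0.56). The fibroblast and mesothelium markers had 7 of 10 above 0 and a median of 0.17 (0.04 with 1 probe per gene), near the 0.18 of 9 wk, and part of them, such as COL1A2, are matrix genes too. The markers ran from WT1 at 1.15 ± 0.51, whose arrays stood at 0.84, 0.40, -1.31 and 4.66, to KRT7 at -0.17 ± 0.11. The share of fibroblasts and mesothelium in the matrix result was not tested.

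Oxidative stress and glutathione had 29 of 39 genes above 0 (median 0.08), 7 of them with an unadjusted p under 0.05 and none lower. 3.06% of all genes reached that p on the higher side, against 7 of 39 here. The list was chosen with earlier results of these data known, so this contrast is no separate evidence about it. 1 of the 7, NQO2, rested on replicate 1 (2.07, -0.13, 0.23 and -0.20), with 1 of its 2 probes of opposite sign. MGST1, a microsomal glutathione transferase, had 1.14, 0.39, 0.91 and 0.71 (0.79 ± 0.30, adjusted p = 0.63). NQO1, a quinone reductase, had 0.55, 0.45, 0.23 and 0.38, and FTH1, the heavy chain of ferritin, 0.10, 0.38, 0.33 and 0.57. SOD1 and SQSTM1 were above 0 on 4 of 4 arrays too, at 0.30 each. GCLM, a subunit of the enzyme that starts glutathione synthesis, was widely spread (-1.03, 1.46, 2.03 and 0.77). MAFF was the highest member only through replicate 1 (4.81, -1.11, 0.04 and -0.24), and GLRX5, a glutaredoxin, the lowest (-1.27 ± 0.64). Against these higher genes, FTL stood at -0.60 ± 0.50, GCLC at -0.20 ± 0.35 and GSS at -0.39 ± 0.21, the last below 0 on every array. None of the list was called.

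Interferon response and antigen presentation had 7 of 26 genes above 0 (median -0.12) and 4 with an unadjusted p under 0.05, all lower, beside 3.14% of all genes. This list too was chosen with earlier results of these data known, so that contrast is no separate evidence. The list's median was lower on replicates 2 and 4, where HG was red, than on replicates 1 and 3. B2M, beta-2-microglobulin, had -0.81, -1.30, -0.04 and -1.08 over 5 probes, and the MHC class I heavy chains that bind it were mostly below 0 too. BF1 had -0.97, -0.72, 0.08 and -0.75 and BF2 -0.22, -0.50, -0.25 and -0.44. Of the 13 probes of BF2, 3 had the opposite sign. Its value below 0 on replicate 3 rested on 1 probe at -4.77, which was missing on replicate 1. The other probes ran from -0.77 to 0.66 on replicate 3. Replicate 3 was closest to 0 for B2M and BF1. The fitted values were -0.81 ± 0.26, -0.59 ± 0.18 and -0.35 ± 0.12, with adjusted p of 0.52 to 0.56. BF1 and BF2 are near-identical in sequence and a cDNA probe may read both, so the 2 are not separate evidence. IFIH1, a sensor of viral RNA, stood at -0.45 ± 0.12 (adjusted p = 0.37). Not all of the list was lower. MX1 was above 0 on every array (0.12, 0.28, 0.75 and 0.17, fitted 0.33 ± 0.30), and IRF7 stood at 0.12 ± 0.14. The list ran from TAP1, a peptide transporter (0.38 ± 0.27), to TAPBPL (-1.03 ± 0.70), whose arrays ran from -5.54 to 2.95. The leukocyte markers also had a median of -0.12, with 6 of 19 above 0. They ran from HCLS1 (0.56 ± 0.28) to GNLY, a killer cell protein (-0.80 ± 0.24). On single arrays the lists differed: the leukocyte median was lowest on replicate 1 and the interferon median on replicate 4. CD74 is in both lists. The part of the leukocyte markers in the interferon values was not tested. C4A of the complement list had -0.62, -1.21, -0.01 and -0.65 (-0.62 ± 0.24, adjusted p = 0.66).

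Steroid and prostaglandin metabolism had 7 of 18 above 0 (median -0.02). HSD11B1B, an 11-beta-hydroxysteroid dehydrogenase, had -1.99, -0.56, -1.78 and -0.61, so that the 2 arrays with LG in red lay far from the 2 with HG in red (-1.23 ± 0.60, adjusted p = 0.81). HPGDS, which makes prostaglandin D2, had 0.01, -2.65, -0.87 and -1.85 (-1.34 ± 0.53, adjusted p = 0.66) and was the lowest member. HPGD, which breaks prostaglandins down, was the highest (0.20 ± 0.35).

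Of the remaining process lists, fatty acid oxidation, ketogenesis and peroxisome had 17 of 39 genes above 0 (from ACADS at 0.63 to ACAA1 at -0.69) and sterol synthesis 12 of 19 (from MSMO1 at 0.22 to SQLE at -0.61). Nuclear oxidative phosphorylation had 22 of 39 (from NDUFA11 at 0.31 to NDUFV2 at -0.70), where UQCRB, a subunit of complex III, had -0.32, 0.81, 0.29 and 0.44. Glycolysis, glycogen and the citrate cycle had 24 of 42 (from PFKM at 0.76 to HK2 at -0.38), and the insulin, IGF and thyroid axis 13 of 23 (from DIO2 at 0.55 to PRKAB2 at -0.51). All 5 medians lay between -0.02 and 0.06, around the 0.01 of all genes.

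Cytosolic ribosomal proteins had 11 of 41 above 0 (from RPL10A at 0.21 to RPL11 at -0.38) and a median of -0.13, but the list's median on single arrays was 0.05, -0.42, 0.11 and -0.23. It was below 0 only where HG was red, and no member reached an unadjusted p under 0.05. The mitochondrial ribosomal proteins had 14 of 33 above 0 (from MRPS15 at 0.45 to MRPL39 at -0.47), translation factors 21 of 40 (from EEF2 at 0.31 to EIF4EBP1 at -0.61), the proteasome 20 of 34 (from PSMG2 at 0.56 to PSMB2 at -0.35) and chaperones of the endoplasmic reticulum 11 of 21 (from SIL1 at 0.66 to EDEM2 at -0.66). Cell cycle and DNA replication had 20 of 41 above 0. CDKN1A, a cyclin-dependent kinase inhibitor, was measured on 3 arrays at 0.05, 3.04 and 2.31 and was the highest of that list, RFC1 was the lowest (-0.89), and CCND1, cyclin D1, had 0.09, 0.23, 0.16 and 0.36.

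Liver genes, which can reach a fat sample as liver RNA, were centred on 0. The hepatocyte markers had 13 of 29 above 0 and a median of -0.01, from FETUB (0.78 ± 1.10) to AMBP (-1.01 ± 1.71). Replicate 1 was lowest, with a list median of -0.41 against -0.08 to 0.27 on the others. ALB had -0.72, 0.40, 0.31 and 0.47, FGA -0.47, -0.11, -0.16 and 0.16, and TTR -0.41, -0.14, 0.30 and -0.15. Complement had 10 of 19 above 0 (from MASP1 at 0.84 to C8A at -1.28) and coagulation and fibrinolysis 9 of 18 (from F9 at 1.03 to F7 at -0.63), with replicate 1 again lowest in both (-0.62 and -0.23). Of the other marker lists, skeletal muscle had 18 of 22 above 0 with a median of 0.09 and no member at an unadjusted p under 0.05 (from XIRP1 at 0.43 to ACTN2 at -0.32). Smooth muscle had 6 of 12 (from SMTN at 0.20 to TAGLN at -0.50), erythrocyte 5 of 9 (from ANK1 at 0.14 to TAL1 at -0.69), endothelium 9 of 19 (from ESAM at 0.14 to TAL1), pancreas 3 of 5 (from CTRL at 0.07 to CELA1 at -0.01) and gut epithelium 3 of 6 (from CDH1 at 0.30 to CLDN3 at -0.10).

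**Figure D2:**
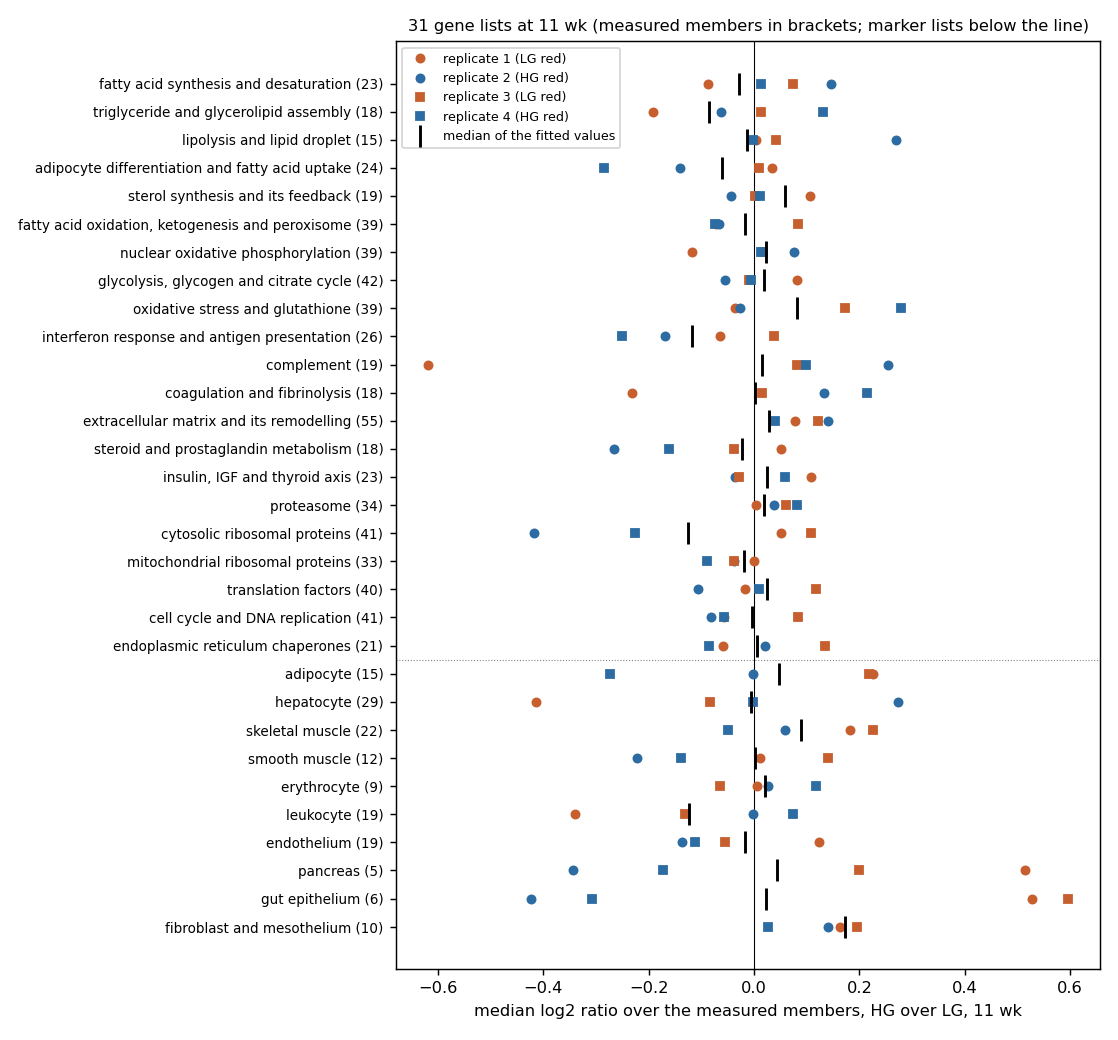
Median log2 ratio of HG over LG at 11 wk (x axis) for 21 process lists and, below the dotted line, 10 marker lists, with 1 point per array and a bar for the median of the fitted values. Most lists straddle 0, and interferon response and cytosolic ribosomal proteins have the lowest medians of the process lists (-0.12 and -0.13).

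Among called probes, those with no listed symbol had the largest positive ratios at 11 wk. Of 16895 probes, 18 passed limma's test (0.107%), 8 higher (0.0474%) and 10 lower (0.0592%) in HG, and 1051 (6.22%) had an unadjusted p under 0.05. Of the 18 probes, 12 had no symbol, 7 of them higher. The largest had log2 ratios of 3.24, 5.10, 1.39 and 2.99 (3.18 ± 0.47, adjusted p = 0.010). The next had 2.62, 5.34, 1.35 and 3.18 (3.12 ± 0.50, adjusted p = 0.012), and the third 3.46, 3.28, 1.66 and 2.30 (2.68 ± 0.41). In all 3, replicate 3 was the lowest array. They were high at each earlier age too: the first stood at 2.60, 2.71, 2.45, 4.42 and 3.93 at 1, 3, 5, 7 and 9 wk and at 3.18 at 11 wk, and the others had the same shape with the highest value at 7 wk. The lowest unnamed probe stood at -1.92 ± 0.27 (-1.38, -2.39, -2.23 and -1.67). These spots are unnamed here, not without a gene, and whether several read 1 transcript is not known. Of the 6 named probes, TIMP4, TGM2, BEND7 and MED27 belonged to the called genes. The others were 1 of 2 probes of OSTC (0.69, 2.04, 1.45 and 2.80) and 1 of 2 probes of HSPD1, the mitochondrial chaperonin (-1.04, -0.98, -1.16 and -1.10). The mean over both HSPD1 probes was -0.49 ± 0.12 (adjusted p = 0.19).

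The next comparison asked whether genes that separated the lines earlier still did so at 11 wk. The 20 arrays of 1 to 9 wk were fitted alone, sharing no bird with 11 wk, and 60 genes were called (0.97% of 6183), 30 higher and 30 lower in HG. Of the 30 higher genes, 29 were above 0 at 11 wk (53.5% of all genes were), 17 on every 11 wk array (5.08% of all genes), and 18 had an unadjusted p under 0.05 at 11 wk (3.06%). Their median ratio was 0.37 at 11 wk and 0.36 over 1 to 9 wk. Of the 30 lower genes, 26 were below 0 (46.5% of all genes were), 11 on every array (5.18%), and 14 had an unadjusted p under 0.05 (3.14%). Their median was -0.28 at 11 wk and -0.48 over 1 to 9 wk. All 60 were chosen on the 1 to 9 wk arrays, which tends to enlarge their 1 to 9 wk ratios but not those of 11 wk. A smaller ratio at 11 wk is thus no sign of change by itself. The p at 11 wk came from the fit over all ages, so its error was drawn largely from the same 1 to 9 wk arrays. Genes called on those arrays tend to have a small spread there, which lowers their p at 11 wk too. Their shares under 0.05 are thus no like comparison with those of all genes. The signs on single arrays and the ratios do not use that error. Of the 60, TIMP4, TGM2 and MED27 were called at 11 wk, in the fit that shares this error. BEND7 was not among the 60, but was lower in HG over 1 to 9 wk too (-0.37, adjusted p = 0.070 by limma).

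Among the 10 highest of 1 to 9 wk, SCD stood at 0.96 at 11 wk and 1.18 over 1 to 9 wk, ABHD3 at 0.89 and 0.74, MGST1 at 0.79 and 0.70, SETD2, a histone methyltransferase, at 0.75 and 0.49, NFASC at 0.66 and 0.46, ARID4B at 0.66 and 0.68, LOC395611 at 0.46 and 0.51 and UQCRB at 0.30 and 0.65. AAR2 was measured on 3 arrays that ran from -1.64 to 2.85. ARL6IP5 was the exception, with -0.25, 0.12, 0.17 and -0.04 at 11 wk and 0.50 over 1 to 9 wk. Among the 10 lowest, MED27 stood at -2.69 at 11 wk and -1.99 over 1 to 9 wk, TIMP4 at -2.10 and -1.02, TGM2 at -1.19 and -0.99, SLCO2A1 at -0.81 and -0.66, GNLY at -0.80 and -0.54 and C4A at -0.62 and -0.62. SPG7, a mitochondrial protease, had 1.10, -1.23, 1.32 and 0.54 at 11 wk, against -0.65 over 1 to 9 wk, and WBP11 0.12 against -0.54. AVD, avidin, had -3.13 on replicate 1 and 0.45 to 1.05 on the others. CRIM1, named after its value was seen, stood at 0.57 at 11 wk, against -0.52 over 1 to 9 wk.

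**Figure D3:**
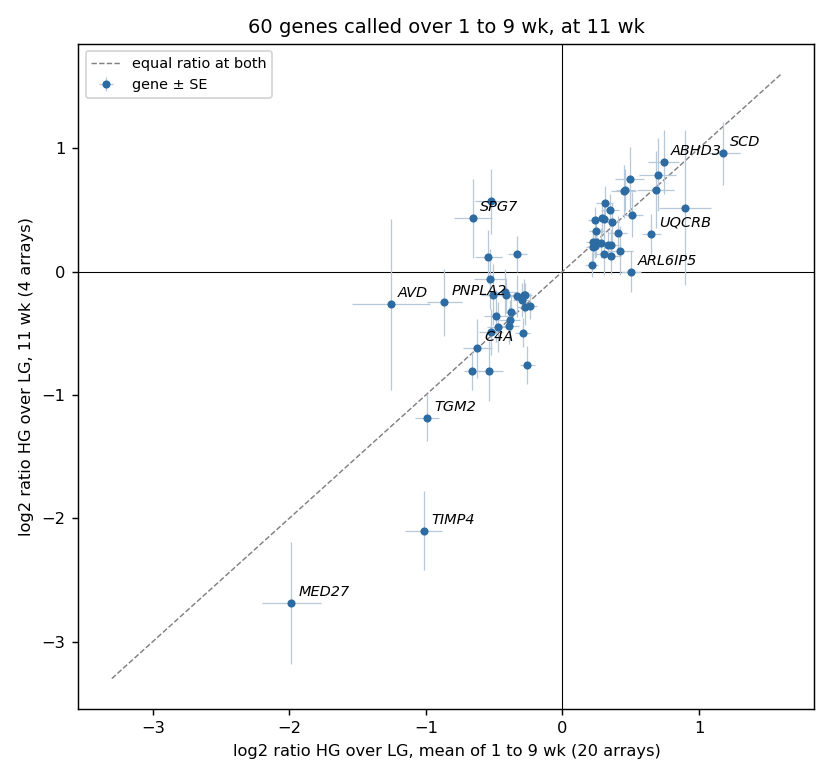
Log2 ratio of HG over LG at 11 wk (y axis, 4 arrays) against the mean of 1 to 9 wk (x axis, 20 arrays) for the 60 genes called on the earlier ages, with SE bars and a dashed line of equal ratio. 55 of the 60 keep their side of 0, and ARL6IP5, SPG7 and WBP11 are among the 5 that do not.

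Whether 11 wk differed from the earlier ages was tested directly. No gene passed for 11 wk against the mean of 1 to 9 wk (0% of 6183, with 254 or 4.11% at an unadjusted p under 0.05, where 309 would be expected if none differed) or for 11 wk against 9 wk (0%, with 236 or 3.82%). No probe passed in either, of 16895 (0%). A difference from earlier ages was thus not detected for any gene.

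Among genes with 1 sign on every measured 11 wk array, those nearest to a difference from 1 to 9 wk had values of this size. OSTC differed by 0.83 (unadjusted p = 0.00051 by limma), OGN by 0.87 (0.00085), MGAT5B by 0.76 and ADAM10, a membrane protease that sheds cell surface proteins, by 0.51, though 1 of its 2 probes had the opposite sign at 11 wk. HPS4 (0.59), CDKN1A (2.06), MYO19 (1.71) and ASPSCR1 (2.61) filled the list on the higher side, the last 3 measured on 3 arrays at 11 wk. MYO19 passed at 11 wk without replicate 1 (adjusted p = 0.048). On the lower side stood NDUFV2, a subunit of complex I, at -0.80 (unadjusted p = 0.00040 by limma), BEND7 at -0.88 (0.00083), DENND2A at -1.14, ALG8 at -0.92, CACNA1E at -1.43, DCT at -0.84, MAPKAPK5 at -2.98 (on 3 arrays at 11 wk, -3.52, -0.66 and -3.08) and AKAP8 at -0.89. The adjusted p was above 0.99 for all 16. C8A of the complement list, which was above 0 on 1 of 4 arrays, differed by -1.30 (unadjusted p = 0.0027 by limma).

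Against 9 wk, DGAT2 was the clearest gene of fat metabolism. Its log2 ratio was 0.23, 0.25, 0.13 and 0.25 at 11 wk and 1.00, 1.07, 0.97 and 0.86 at 9 wk. The line difference was smaller at 11 wk by 0.76 on the log2 scale (unadjusted p = 0.00045, adjusted p = 0.67 by limma). The share of all genes whose arrays separate the 2 ages in this way was not counted. DGAT2 stood among the genes nearest to a difference from 9 wk, so the gap between its arrays is no separate evidence. PPARG had 0.41, 0.002, -0.33 and -0.30 at 11 wk and 1.00, 0.11, 0.57 and 1.48 at 9 wk, a difference of -0.84 (adjusted p = 0.95), and the 2 ages overlapped. SCD differed by -0.62 and FADS2 by -0.49, both with an unadjusted p above 0.05. FASN (0.17) and CDS2 (-0.09) were nearly equal at the 2 ages. PNPLA2 stood at -0.25 at 11 wk and 0.18 at 9 wk, after -1.77 at 5 wk and -1.60 at 7 wk.

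With the same limit to 1 sign on every 11 wk array, the other genes nearest to a difference from 9 wk were AKAP8 (-1.38), ARPC4 (-3.41, on 3 arrays at 11 wk), C11orf88 (-2.27), CACNA1E (-1.88), MRPL13 (-0.83, with 2 of its 3 probes of opposite sign at 11 wk), SUMF2 (-1.53) and WNK4 (-2.06) on the lower side. On the higher side they were STX12 (1.92), OSTC (0.82), SLC25A16 (0.93), GLO1, a glyoxalase (0.68), ELF1 (0.82), DLAT, a subunit of pyruvate dehydrogenase (0.59), PDE9A (0.32) and TRAF5 (0.27). Outside that limit, C8A (-2.21, unadjusted p = 0.00023 by limma) was nearer than all of these. EDEM2 (-1.28, unadjusted p = 0.0019 by limma) was nearer than some of them. None passed, with adjusted p of 0.67 or more.

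**Figure D4:**
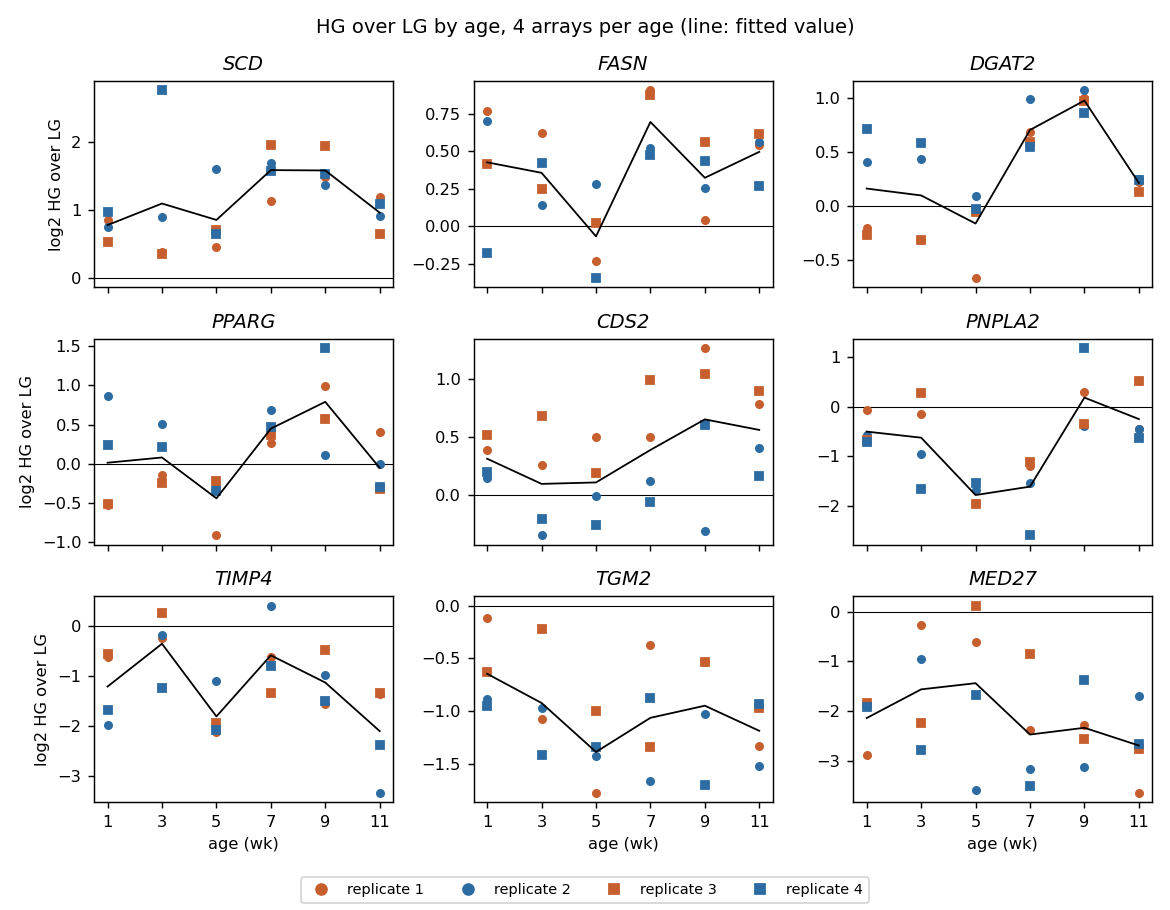
Log2 ratio of HG over LG (y axis, a scale of its own in each panel) by age in wk (x axis) for 9 genes, with 1 point per array and a line through the fitted values. DGAT2 stands between 0.86 and 1.07 on the 9 wk arrays and between 0.13 and 0.25 on those of 11 wk, while SCD stays above 0 and TGM2 and TIMP4 end at -1.19 and -2.10. The difference of DGAT2 between these 2 ages did not pass limma's test (adjusted p = 0.67).

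Across ages, limma called 0 genes at 1 wk, 0 at 3 wk, 23 at 5 wk, 14 at 7 wk, 2 at 9 wk and 4 at 11 wk. In the same order the median size of a gene's ratio was 0.12, 0.09, 0.10, 0.09, 0.12 and 0.11. The 11 wk ratios correlated across 6183 genes with those of 1 to 9 wk at r = 0.251 and with those of 9 wk at r = 0.108, as a description with no test, since genes share arrays and dye effects.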

How the data were processed

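The authors hybridised 24 spotted cDNA arrays in a balanced dye design and scanned them with GenePix software. Their methods describe LOWESS normalization, but the deposited log2 ratios, taken here as red over green, had array medians from -0.336 to 0.32 and may not have been so normalized. With no spot intensities, LOWESS could not be applied, dim spots stayed in, and the number of arrays limits the precision. Missing ratios (601 to 1756 spots per array) and values above 16.6, where the software could form no ratio (53 to 176), were left out.

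Each array was centred on its median and turned to HG over LG. Spots were named through the platform annotation, whose identifiers hold their last 2 numbers in exchanged order (in that order named spots were missing on 0.621 arrays on average and unnamed ones on 1.84): 10601 of 19200 spots had 1 symbol and 8599 none, 10455 identifiers were current and symbols stayed as listed. Symbol STUB1, listed for 95 spots, was left out. A probe entered if each age had 3 or more arrays with a value (16895 probes), and probes of 1 symbol were averaged (6183 genes, 2538 on more than 1 probe). limma 3.58.1 in R 4.3.3 (lmFit, eBayes) fitted 6 age terms and a dye term over all 24 arrays. Adjusted p-values are Benjamini-Hochberg over all genes or probes, with a threshold of 0.05. SE is from the model, n counts arrays, and SD is over the 4 arrays. Figures were drawn with matplotlib 3.10.9.

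Genes named are those called with 1 sign on all measured arrays, filled to 8 per direction, for each comparison; the 10 largest per direction over 1 to 9 wk; the highest and lowest of each of 31 lists; and 26 fixed by name. COL1A1, COL1A2, COL6A1, NQO1, NQO2, FTH1, FTL, GSS, GCLC, SOD1, SQSTM1, IFIH1, MX1, IRF7, CRIM1, HSPD1, CEBPG, RXRA, NR1H3, FADS1 and CD74 were named after their values were seen. Members and lists were chosen with earlier results of these data known. On simulated data for the 11 wk comparison of 6183 genes, 39.7%, 74.0% and 94.8% of genes changed by 0.5, 1 and 2 on the log2 scale were recovered. The simulation used independent normal noise of each gene's fitted spread and no difference in the remaining genes, of which 0.147% were called. Over 5 simulations, 335, 335 and 330 genes were changed by 0.5, 1 and 2. So many changed genes make an adjusted threshold easier to pass than with the few genes called at 11 wk. Recovery on the real arrays may differ and was not measured. Alternatives covered dye, centring, scaling, weights, filters, moderation, blocks, ages and left-out arrays.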

Additional observations from a re-analysis of the deposited data

Results flagged for a closer look

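Of 128 sets of 4 arrays at 11 wk, 9 held 1 array far from the other 3 by Dixon's criterion, where chance gives about 1 in 20. ALB had -0.72 on replicate 1, against 0.31 to 0.47 on the others. AVD had -3.13 on replicate 1, against 0.45 to 1.05. NDUFV2 had -1.53 on replicate 3, against -0.46 to -0.36, and PRKAB2 -2.15 on replicate 3, against -0.04 to 0.11. PNPLA2 stood at 0.52 on replicate 3 and at -0.62 to -0.44 on the others. WBP11 stood at 0.73 on replicate 4, against -0.17 to -0.01. Of the unnamed called probes, that of the fourth highest ratio had 0.77 on replicate 3, against 2.13 to 2.34, and that of the seventh had 1.31 on replicate 1, against 0.78 to 0.83. The median of replicate 3 before centring was -0.128, against -0.012 to 0.01.

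STX12, SUMF2 and TRAF5 stood on opposite sides of 0 on all 4 arrays of 11 wk and all 4 of 9 wk. Only the 119 named genes were examined. These genes had been named for 1 sign at 11 wk and a large difference from 9 wk, so the split is no separate evidence. The share of all genes with such a split was not counted. STX12, a syntaxin, had 0.32, 0.92, 2.75 and 1.29 at 11 wk and -0.57, -0.34, -0.86 and -0.65 at 9 wk, a difference of 1.92. SUMF2 had -1.37, -0.49, -1.26 and -0.27 at 11 wk and 1.69, 0.73, 0.30 and 0.01 at 9 wk, a difference of -1.53. TRAF5 differed by 0.27 and lay within 0.5 of 0 on every array of both ages. None passed limma's test of that difference (adjusted p of 0.67 or more), and they are the extremes of many genes.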

How the results depend on the processing

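At 11 wk, limma called 2 genes with array weights and 0 without the arrays of 1 and 3 wk, beside 4. It called 0 with the 11 wk arrays fitted alone (413 genes at an unadjusted p under 0.05). Both fits with 0 genes used fewer arrays. Probes fell to 4 with scaled arrays, 0 with array weights, 4 without 1 and 3 wk and 0 at 11 wk alone, beside 18. Leaving out 1 array of 11 wk gave 1 to 6 genes and 0 to 26 probes. Over 1 to 9 wk the 60 genes became 22 without the dye term, 22 without 1 and 3 wk, and 33 without the 3 wk array with most missing spots, an alternative chosen after seeing the data. The cause of these changes was not tested. Differences of 11 wk from other ages stayed at 0 genes under every alternative run. No pairing of the arrays by replicate number was seen (60 pairs, r from -0.362 to 0.281, 3 over 0.1, and 0 of 4 arrays of 11 wk correlated best with its own number). This check cannot decide the question, because the number went with the dye orientation. After the fit, mean r was -0.135 to -0.057 with numbers of the same orientation and 0.062 to 0.116 with those of the other. With a replicate block, 3 genes, 12 probes and 43 genes of 1 to 9 wk passed, and MED27 lost its call. TIMP4 kept its call under 12 of 16 alternatives, BEND7 under 11, TGM2 under 10 and MED27 under 4, all with 1 sign. Values without centring moved the median of all genes to 0.04. Signal over background was not measured, so dim spots limit the precision to an unknown degree.

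Of 119 named genes, 30 changed sign under at least 1 alternative, none of them called. Values as deposited gave ARL6IP5 0.027 and CELA1 0.018, block centring ARL6IP5 0.0595 and array weights ARL6IP5 0.019. Only probes on all 24 arrays gave ADAM10 -0.037, CLDN3 0.049, ELF1 -0.13, FGA 0.22, MRPL13 0.052, SQLE 0.039, TAGLN 0.039 and TTR 0.0115. With 1 probe per gene they were ADAM10 -0.037, CLDN3 0.049, ELF1 -0.13, FADS2 -0.19, FGA 0.064, MRPL13 0.038, OSTC -0.069, SQLE 0.039, TAGLN 0.0798, TAP1 -0.29 and TTR 0.043. Leaving out 1 array gave AAR2 -0.58 to 1.76, ACTN2 -0.94 to 0.31, ALB -0.15 to 0.54, ARL6IP5 -0.11 to 0.15, AVD -0.82 to 0.65, CDH1 -0.043 to 0.58, CEBPA -0.049 to 0.094, CELA1 -0.12 to 0.092, DIO2 -0.10 to 0.86, EEF2 -0.032 to 0.49, FETUB -0.45 to 1.91, HPGD -0.24 to 0.69, MAFF -0.31 to 1.38, PPARG -0.27 to 0.089, RPL10A -0.053 to 0.54, SIL1 -0.075 to 1.67, SLC27A2 -0.0073 to 1.08, TAP1 -0.028 to 0.65, TAPBPL -2.27 to 0.39, TTR -0.17 to 0.095 and WBP11 -0.069 to 0.20.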
